A study of Homo sapiens with 13 samples.

Results

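Of 19111 protein-coding genes on chromosomes 1 to 22, 358 had an accessible region at the promoter in H146 cells and none there in H82 cells. The promoter was the stretch of 1 kb to either side of the transcription start site (TSS), taken as the 5′ end of the gene in GENCODE release 44, and an overlap of 1 bp was enough. These 358 H146-only promoters were selected on the presence of an H146 region and the absence of an H82 region. The count that the rule itself fixes, 1.87% of all promoters, is therefore a description, and no test was made on it. Another 14559 promoters had a region in both lines, 942 in H82 only and 3252 in neither.

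H146 and H82 are human cell lines of small cell lung cancer (SCLC). In the study H82 stands for the subtype marked by NEUROD1 and H146 for another subtype. ATAC-seq, which marks open DNA by the insertions of the transposase Tn5, was carried out on 4 untreated H146 samples and 3 treated with FHD-286, and on 3 untreated and 3 treated H82 samples. FHD-286 inhibits SMARCA4 and SMARCA2, the ATPases of the SWI/SNF remodelling complexes, and was given at 100 nM for 14 days. The data are 1 pooled list of regions per line, hereafter an atlas, in which a region has a start and an end on hg38 but no height, no count and no sample. FHD-286 therefore could not be compared with untreated cells, no value has a spread between samples, and the depth behind a region is unknown. The H82 atlas was the larger, with 201148 regions on chromosomes 1 to 22 against 169986 in H146. A region enters an atlas when any sample of the line shows it, so line, number and depth of samples, DNA copies, sequencing batch and treatment cannot be told apart in any comparison of the atlases. By the study's methods the H146 samples came from 2 sequencing batches, with all treated samples and 1 untreated sample in the same batch, and the atlas does not show which batch gave a region.

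A promoter is where the transcription machinery assembles, and an accessible promoter is a nucleosome-poor stretch that regulatory proteins can reach. Most genes that are active in every cell start in CpG islands, which tend to be open whether the gene is strongly used or not. Genes restricted to particular tissues more often start outside islands, where accessibility differs more between cell types. An open promoter is not a measure of expression.

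The labelled lines were checked at their defining genes. Of the neuroendocrine markers, INSM1, SYP, CHGA, NCAM1 and DLL3 had a promoter region in both lines. NEUROD1 had a region in H82 only. POU2F3, YAP1 and REST, which mark other SCLC states, had a region in both lines. Of 5 genes of other cell types, PTPRC and CD3E of leukocytes had a region in neither line, and COL1A1, PECAM1 and VIM had one in both. None of these genes was an H146-only promoter.

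The 358 promoters held 374 H146 regions, since 342 promoters had 1 region and 16 had 2. Sequences of a few regions are given first, to show what such a region is made of. Among the transcription factor genes that were members, ZNF415, POU2F2, ISX and HOXB7 had the widest regions, though none was among the 12 widest members. ZNF415 encodes a zinc-finger protein, POU2F2 the octamer factor OCT2 of B cells, ISX an intestinal homeobox factor and HOXB7 a homeobox factor of body patterning. Capitals mark the words CAGCTG and CAGATG (E-boxes, the latter of the form bound by NEUROD1), TGTTTAC (FOXA factors), TAATCC (OTX2 and CRX), TGACTCA (AP-1), TATAAA (bound by TBP), CCAAT (NF-Y) and GGGCGG (SP and KLF factors), on either strand. Sequences are from hg38, read 5′ to 3′ on the strand of the gene, and leave out untranslated exons. The ZNF415 region lay downstream of the TSS, so an intronic stretch of it is shown, chr19:53132449-53132748 on the minus strand. The others are upstream, at chr19:42196748-42197047 (minus) for POU2F2, chr22:35065836-35066135 (plus) for ISX and chr17:48633573-48633872 (minus) for HOXB7.
ZNF415: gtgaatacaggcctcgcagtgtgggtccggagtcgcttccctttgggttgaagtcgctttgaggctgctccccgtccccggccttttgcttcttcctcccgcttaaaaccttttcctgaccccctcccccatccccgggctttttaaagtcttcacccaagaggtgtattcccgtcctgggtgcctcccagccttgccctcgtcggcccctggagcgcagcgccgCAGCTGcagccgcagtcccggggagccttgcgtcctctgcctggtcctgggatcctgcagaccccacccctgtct
POU2F2: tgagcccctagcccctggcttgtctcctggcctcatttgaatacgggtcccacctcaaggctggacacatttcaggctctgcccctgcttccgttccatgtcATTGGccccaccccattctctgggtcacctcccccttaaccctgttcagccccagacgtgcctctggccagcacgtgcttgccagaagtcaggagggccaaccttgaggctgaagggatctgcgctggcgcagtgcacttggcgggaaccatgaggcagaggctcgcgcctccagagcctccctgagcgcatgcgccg
ISX: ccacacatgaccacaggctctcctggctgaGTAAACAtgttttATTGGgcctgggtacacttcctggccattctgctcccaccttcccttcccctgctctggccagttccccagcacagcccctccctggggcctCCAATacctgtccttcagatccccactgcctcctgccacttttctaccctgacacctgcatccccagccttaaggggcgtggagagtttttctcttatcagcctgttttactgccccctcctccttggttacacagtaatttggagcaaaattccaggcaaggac
HOXB7: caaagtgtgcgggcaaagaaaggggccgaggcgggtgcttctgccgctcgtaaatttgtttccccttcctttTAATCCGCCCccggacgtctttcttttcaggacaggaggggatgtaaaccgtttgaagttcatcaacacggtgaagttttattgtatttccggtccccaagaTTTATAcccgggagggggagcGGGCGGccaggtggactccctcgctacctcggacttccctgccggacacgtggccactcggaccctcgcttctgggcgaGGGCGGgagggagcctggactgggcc

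The ISX stretch held a FOXA word and a pair of CCAAT words, and the HOXB7 stretch held 3 GGGCGG words with a TATAAA and a TAATCC word. POU2F2 had a CCAAT word alone, and ZNF415 a CAGCTG word alone. The ISX and HOXB7 stretches ended at the base before the TSS, whereas the POU2F2 stretch ended 163 bp before it. A further 4 stretches, chosen after the data were seen, come from a pair of neuropeptide genes, a mucosal gene and a chemokine gene. These genes are described further on. The stretches are PDYN (chr20:1994699-1994898, minus), NMS (chr2:100470163-100470390, plus), SCGB2A2 (chr11:62269858-62270157, plus) and CXCL8 (chr4:73740393-73740518, plus). Those of PDYN and NMS are whole regions, whereas SCGB2A2 is shown for 300 of 550 bp and CXCL8 for 126 of 532 bp.
PDYN: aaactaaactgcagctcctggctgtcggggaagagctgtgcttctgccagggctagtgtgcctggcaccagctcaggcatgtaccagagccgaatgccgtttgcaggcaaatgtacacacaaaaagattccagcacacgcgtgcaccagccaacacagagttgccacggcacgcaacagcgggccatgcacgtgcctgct
NMS: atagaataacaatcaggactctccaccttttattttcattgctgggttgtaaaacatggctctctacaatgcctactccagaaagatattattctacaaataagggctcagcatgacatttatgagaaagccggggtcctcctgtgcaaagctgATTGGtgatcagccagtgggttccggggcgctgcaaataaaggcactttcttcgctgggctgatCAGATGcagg
SCGB2A2: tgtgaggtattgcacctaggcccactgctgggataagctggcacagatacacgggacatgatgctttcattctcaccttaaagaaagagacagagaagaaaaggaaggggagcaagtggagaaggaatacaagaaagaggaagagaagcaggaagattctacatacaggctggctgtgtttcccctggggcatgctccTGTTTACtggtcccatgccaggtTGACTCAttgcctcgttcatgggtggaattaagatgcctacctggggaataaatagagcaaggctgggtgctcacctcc
CXCL8: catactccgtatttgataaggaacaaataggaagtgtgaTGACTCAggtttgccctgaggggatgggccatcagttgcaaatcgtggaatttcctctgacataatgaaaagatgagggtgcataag

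NMS held a CAGATG and a CCAAT word. The PDYN region, 200 bp wide, held none of the 8 words. SCGB2A2 and CXCL8 each held TGACTCA, 79 and 87 bp upstream of the TSS when read from the first base of the word. A word is a match of letters and says nothing of whether a factor was bound.

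The H146 regions at these promoters were narrow. Their median width was 362.5 bp, with quartiles at 252.25 and 569 bp and a range from 200 to 5944 bp. The floor of 200 bp, the narrowest width in either atlas, was met by 44 regions (11.8%), and 144 regions (38.5%) were under 300 bp. At promoters with a region in both lines, the 12939 H146 regions had a median of 1692 bp, and 2.50% of them were under 300 bp. Of all 169986 H146 regions, the median was 500 bp. The 50012 H146 regions that met no H82 region anywhere had a median of 315 bp. At the 942 H82-only promoters, the 975 H82 regions had a median of 604 bp. Because neighbouring peaks within 500 bp had been joined and a wide region meets the other atlas more readily, width is linked to the rule, and these medians are a description.

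In most of the widest members, the H146 region ran out of the promoter window and met an H82 region beyond it. This was so for 38 regions at 38 members (10.6%), whose median width was 1696.5 bp, against 328.5 bp for the other 336 regions. SPAAR, which encodes a small lysosomal polypeptide, had the widest region at 5944 bp, with its centre at -3800 bp, upstream of the TSS, and the nearest H82 base was 1161 bp from its TSS. RNF215 followed with 4605 bp and H82 accessibility at 1015 bp. Regions at 11 of the 12 widest members met an H82 region in this way.

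The other wide members of this kind were NLRP6 (3165 bp), an inflammasome sensor, ENSG00000257390 (3116 bp), LEFTY1 (3087 bp), a NODAL antagonist, and TSPAN8 (2963 bp), a tetraspanin of epithelia. TBC1D3H (2833 bp), SCT (2792 bp), THY1 (2752 bp), SIT1 (2704 bp) and KLK4 (2660 bp) completed them. Of the 374 regions, 17 also came within 1 kb of the start of another coding gene. The SPAAR region lay near HRCT1, that of RNF215 near MTFP1, that of TSPAN8 near LGR5, that of SCT near CDHR5, that of ENSG00000257390 near DNAJC14 and that of ZC3HAV1 near TTC26. To which of these genes such a region belongs cannot be told from the files.

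**Figure D1:**
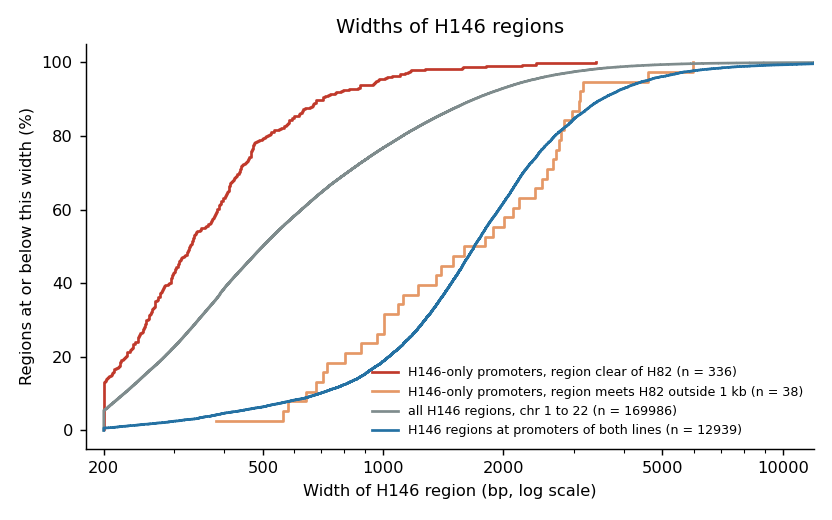
Cumulative share of H146 regions (y, in percent) at or below a width (x, in bp, log scale). The 336 regions at H146-only promoters that were clear of H82 regions lie to the left of all H146 regions, with a median of 328.5 bp, and the 38 that met an H82 region outside the window lie near the regions at promoters of both lines.

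Regions lay on both sides of the TSS. Their centres were upstream in 173 cases and downstream in 200, with 1 centre at the TSS itself (ARSI, 580 bp), and the median distance to the TSS was 355.5 bp. At 128 members (35.8%, 95% Clopper-Pearson interval 30.8% to 41%) the region covered the TSS base. The interval covers counting error only and treats promoters as independent, although some members share a region. It does not measure a spread between samples. The 128 regions over the TSS had a median width of 388 bp, and the other 246 a median of 336 bp. By annotation, 175 centres (46.8%) were outside the gene, 99 (26.5%) in an intron, 49 in an untranslated exon, 48 in a coding exon and 3 in a non-coding exon. Centres in coding exons included those of the keratin-associated genes KRTAP5-6 and KRTAP12-2 and the olfactory receptor genes OR2T34 and OR14K1.

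**Figure D2:**
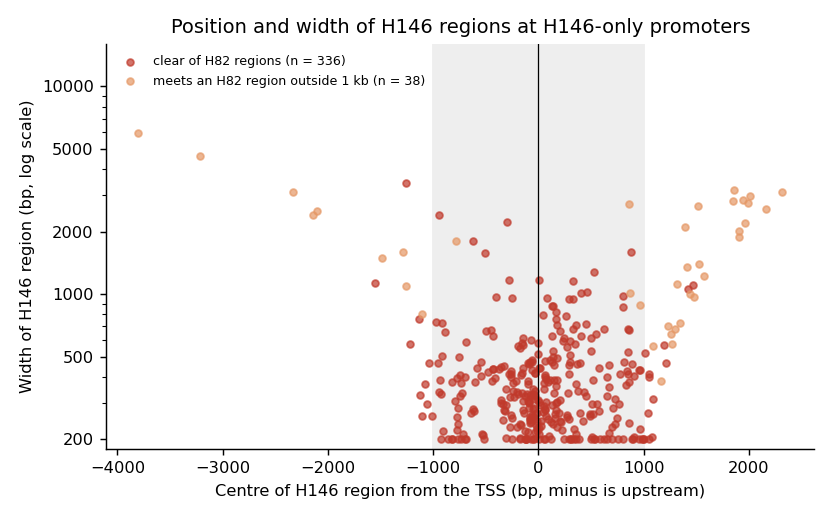
Each point is an H146 region at an H146-only promoter, by the distance of its centre from the TSS (x, in bp, minus is upstream) and its width (y, in bp, log scale). Shading marks 1 kb to either side. Narrow regions fill the window on both sides, and regions of 2 kb or more are centred mainly outside it.

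H82 accessibility was often close by. The nearest H82 base was at a median of 3322 bp from the TSS, with quartiles at 1625.75 and 8299 bp, and 114 members (31.8%) had one within 2 kb. In 252 members (70.4%) the gene body held an H82 region, against 91.8% over all promoters and 58.2% for promoters of neither line. The rule bars an H82 region from the first 1 kb of the gene body, so a share below that of all promoters is partly built in. At H82-only promoters, 70.6% of gene bodies held an H146 region. Of the 271 members with more than 1 annotated start, 138 had an H82 region within 1 kb of some other start, which left 220 of the 358 (61.5%) without H82 accessibility at any start. RNF215 had H82 regions at 7 of 8 starts, EPAS1 at 8 of 10, POU2F2 at 17 of 20 and GFAP at 23 of 31. In those genes the contrast concerned the outermost start, not the whole gene.

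There were 68 members (19.0%) with no H82 region within 10 kb, and 40 of them had none in the gene body either. The same held for 6.7% of all promoters and 37.3% of those of neither line. In the mirror class, 26.6% of H82-only promoters had no H146 region within 10 kb. TAS2R19, a bitter taste receptor gene, was the farthest at 80000 bp, followed by CDYL2 (78628 bp), a chromodomain gene. CLEC4C (55378 bp) encodes a lectin of plasmacytoid dendritic cells and GDPD4 (49020 bp) a phosphodiesterase. COLEC10 (42750 bp), POTEC (41680 bp), KLHL28 (40822 bp) and IRX6 (40679 bp) came next. KLHL28 had H82 regions at 5 of its 7 starts, and the others had none at any start. CDYL2 was also the widest of the 8, with 877 bp over the TSS in a promoter of CpG-island composition.

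Most of the 68 stood alone in H146 too, since 49 had 1 H146 region within 10 kb. PDYN, the gene of prodynorphin, from which the dynorphin opioid peptides are cut, had 4 and OR2T10 had 3. CPAMD8, VIPR1, DHRS9, ISX, CXCL8 and HSD3B1 had 2 each. Around PDYN the H82-free stretch was 55438 bp long and held 10 H146 regions, although the region at the promoter was only 200 bp wide. Around CPAMD8, a protease-inhibitor-like gene, the H82-free stretch was 68792 bp with 9 H146 regions, and the promoter region was 1805 bp. CPAMD8 nevertheless had H82 regions at 12 of its 18 starts and 6 in its gene body, and VIPR1 at 9 of its 14 starts and 7 in its gene body, so these distances concern the outermost start. The other genes named here had no H82 region at any start.

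Promoters just inside and just outside the rule differed little in distance. The members closest to the H82 limit were SCT (1010 bp), KLK4 (1011 bp), ECM1 and LRRC74A (1012 bp each) and RNF215 (1015 bp). Just outside lay C1QTNF1 and SLPI (995 bp each), BUB1B-PAK6 (993 bp), ZNF331 (990 bp) and PFKFB2 (989 bp). The smallest overlaps of H146 regions with the window were 7 bases at KRTAP5-1, 17 at PSORS1C2, 19 at SELE, 21 at AKNA and 24 at COL6A3. Genes whose nearest H146 base was just too far were IQCJ (1004 bp), TGM6 (1005 bp), IFITM2 (1009 bp) and OR2T1 (1011 bp).

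The base composition of these promoters was not used by the rule. A promoter was called CpG-island-like when the 500 bp to either side of the TSS had over 50% GC and a ratio of observed to expected CpG above 0.6. This held for 38 of the 358 members (10.6%, interval 7.62% to 14.3%), against 22.9% of H82-only promoters, 73.8% of promoters of both lines and 5.63% of those of neither. Median GC was 51.2%, 54.3%, 61.8% and 44.8% in the same order, and the median CpG ratio 0.249, 0.308, 0.753 and 0.215. Among promoters with an H146 region, 38 of 10782 island-like promoters were H146 only (0.352%), against 320 of 4135 others (7.74%). Island-like members had regions of median 515 bp, and the others 336 bp.

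The island-like members were of mixed function, with CAPRIN2, COX6A2, DOCK2, GJB6, BOLL and POTEC besides developmental and neuronal genes. NOTCH3 (region of 1276 bp), GDF10 (946 bp), SFRP2 (944 bp), HOXB7 (600 bp), IRX6 (341 bp) and UTF1 (455 bp) were among them, as were TAFA5 (2224 bp), SHANK1 (1593 bp), ATP2B2 (794 bp), ADGRB1 (666 bp) and PTPRT (510 bp). Of the 18 genes grouped as synaptic, neuronal adhesion or glial, 5 were island-like, against 0 of 19 keratin and hair genes. Both groups were made after the members were known, and the island-like share of such genes at large was not counted.

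**Figure D3:**
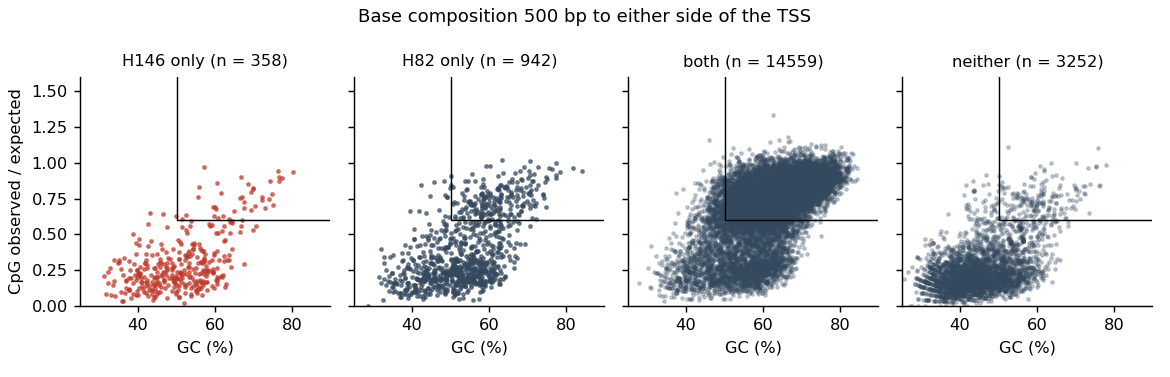
GC content (x, in percent) against observed over expected CpG (y, a ratio) for 500 bp to either side of each TSS, in 4 panels by promoter class. The lines bound the island-like corner, which holds 10.6% of H146-only promoters and 73.8% of promoters of both lines.

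The frequency of a word varies with base composition, so words are given beside all promoters and beside non-island promoters. Within 500 bp of the TSS, CAGATG was present in 57.8% of members and 38.7% of all promoters. Among non-island promoters it was present in 61.9% of members, 57.9% of H82-only, 49.2% of both and 55.5% of neither. CAGCTG was present in 53.1% of members and 44.5% of all promoters, and in 54.1%, 55.1%, 53.0% and 40.3% of the same non-island classes. TGTTTAC was present in 13.7% of members and 8.26% of all promoters, and in 14.7%, 10.2%, 9.99% and 12.8% of the non-island classes. TAATCC was present in 33.0% of members and 27.2% of all promoters, and in 33.8%, 43.7%, 31.0% and 39.1% of the non-island classes, where members lay below both H82-only and neither. TGACTCA was present in 17.6% of members and 10.8% of all promoters, and in 19.7%, 16.3%, 15.4% and 18.1% of the non-island classes. TATAAA was present in 44.7% and 27.0%, and outside islands in 48.1% of members, 39.8% of H82-only, 31.4% of both and 56.8% of neither. CCAAT was present in 70.7% and 65.5%, and in 74.4%, 70.7%, 69.0% and 77.7% of the non-island classes. GGGCGG was present in 37.2% of members and 72.2% of all promoters, whereas outside islands it was present in 30.6% of members, 40.6% of H82-only, 56.7% of both and 19.1% of neither. No test was made of these shares.

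Inside the H146 regions themselves, 36.3% of members held CAGCTG, 32.1% CAGATG and 9.50% TGTTTAC. Per 10 kb, regions under 1 kb at H146-only promoters held 10.04 CAGCTG, 7.85 CAGATG and 2.27 TGTTTAC words, on 54.4% GC. Regions under 1 kb at non-island promoters of both lines held 10.36, 7.50 and 1.22 of these words, on 55.2% GC. The FOXA word was denser in the former set, on 28 matches against 104, whereas both E-boxes lay close together. The 50012 H146 regions that met no H82 region, at any width and with 47.0% GC, held 3.11 TGTTTAC words per 10 kb, above the H146-only promoters, and 8.79 CAGCTG and 8.96 CAGATG words. That set had a lower GC content and no limit of width. Its TATAAA (7.69 against 5.42) and CCAAT (15.28 against 10.69) words were also denser than in the H146-only promoter regions under 1 kb. Whether a higher density of the FOXA word is particular to these promoters therefore cannot be told from it. No test was made, as regions are not replicates of a line.

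The genes were then read by function. Of the 358 members, 222 were on at least 1 of 37 family lists made from gene symbols, and a looser reading by hand, made after the members were known, placed 311 in 19 groups. The lists below give the members of each family out of all its genes, beside the 1.87% of all promoters that the rule selected. Widths are those of whole regions, also where a region ran out of the window and met an H82 region. Besides the wide members described above, such regions lay at KRTAP5-1, SSTR5, SHANK1, CD36, IL1F10, RAC2, ZAP70, ITGAX, COL6A3, APOC3 and ALOX15, among others. The 1.87% is not matched for base composition. Among promoters with an H146 region, 0.352% of island-like and 7.74% of other promoters were H146 only. The family shares were not adjusted for this and are a description.

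**Figure D4:**
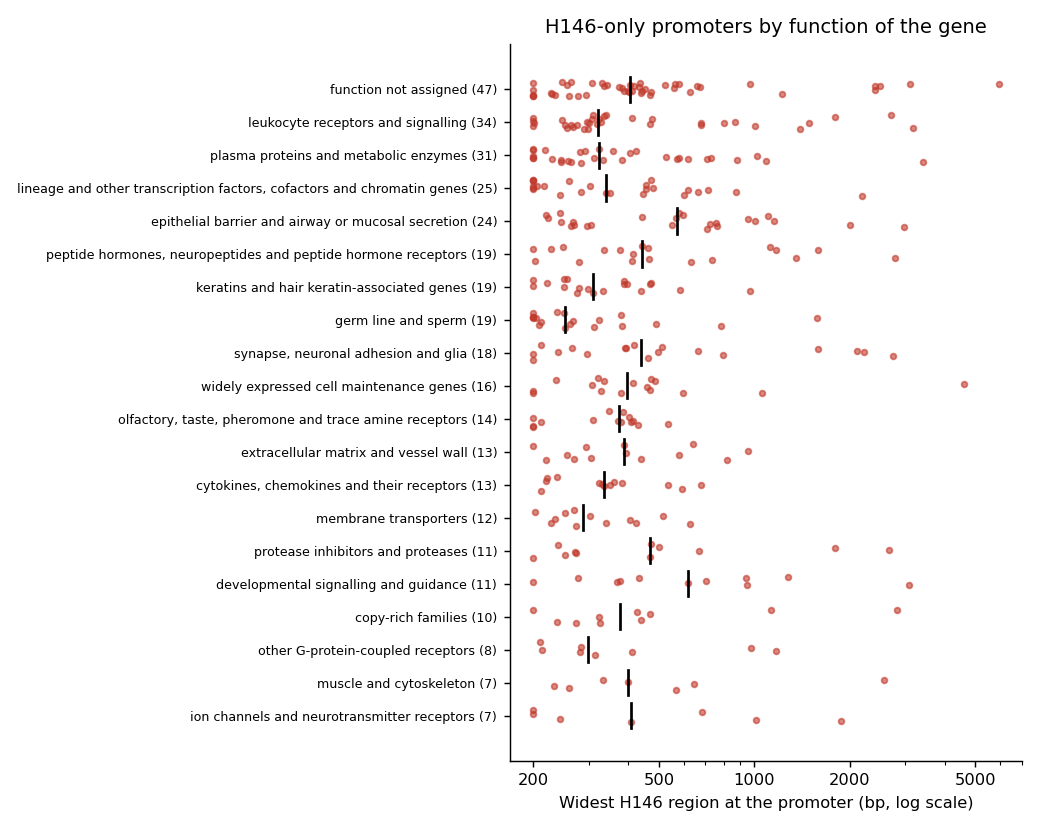
Widest H146 region at each H146-only promoter (x, in bp, log scale), by group of gene function (y, number of members in brackets). Points are promoters, with random vertical spread, and black bars are medians, which run from 253 bp for germ line genes to 618 bp for developmental signalling genes.

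Transcription factor genes on the family lists were few when pooled, but the lists differed. The share was 0.725% for zinc-finger and 0.935% for basic helix-loop-helix genes. It was 2.39% for homeobox, 2.17% for nuclear receptor and 2.08% for forkhead genes, above the 1.87% of all promoters. The 7 transcription factor lists held 1088 genes, of which 12 (1.10%) were H146-only promoters and 882 had a region in both lines. The lists do not hold every factor. The group by hand of transcription factors, cofactors and chromatin genes had 25 members, among them ATF3, OVOL3, UTF1, NAB1 and ZGLP1. The homeobox list gave 5 of 209, ISX (615 bp), HOXB7 (600 bp), POU2F2 (665 bp), IRX6 (341 bp) and DUXA (217 bp). The zinc-finger list gave 4 of 552, ZNF415 (715 bp), ZNF729 (350 bp), ZNF469 (302 bp and 200 bp) and ZSCAN18 (200 bp). EPAS1 (456 bp), which encodes the hypoxia factor HIF-2α, FOXI1 (283 bp), a forkhead factor of airway ionocytes, and RXRA, a retinoid receptor with a pair of 200 bp regions, were the others. FOXI1 had no H82 region within 10 kb, and its nearest was 34774 bp away. Like POU2F2 and EPAS1, some of these genes had H82 regions at other starts. These were RXRA (4 of 5 starts), ZSCAN18 (5 of 14), HOXB7 (1 of 3) and ZNF469 (1 of 2). The other factors on the lists had none at any start. SOX and HMG-box genes (0 of 37) and the list of T-box, GATA, RUNX, ETS, KLF, IRF and STAT genes (0 of 90) had no member, nor had the replication-dependent histone genes (0 of 73).

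Genes of peptide hormones and neuropeptides are typical products of neuroendocrine cells, which store them in dense granules. Of 117 such genes, 8 (6.84%) were H146-only promoters, 14 were H82 only and 75 had a region in both lines. SCT (2792 bp) encodes secretin, AVP (1172 bp) vasopressin, RETN (1118 bp) resistin and FSHB (735 bp) a subunit of follicle-stimulating hormone. CGB3, a subunit of chorionic gonadotropin, had regions of 460 and 200 bp, NMS (neuromedin S) 228 bp, TAC4 (a tachykinin) 203 bp and PDYN 200 bp. The AVP region covered the TSS, whereas those of SCT and RETN were downstream and met H82 regions. CGB3 has near-identical copies next to it, so its reads may have come from a neighbour.

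Receptors of peptides were also present. VIPR1 (1586 bp) and VIPR2 (630 bp) encode the receptors of vasoactive intestinal peptide, a relative of secretin. SSTR5 (1355 bp) and SSTR3 (335 bp) encode somatostatin receptors, and GALR3 (463 bp) a galanin receptor. GNRHR (412 bp) and QRFPR (377 bp) encode receptors of gonadotropin-releasing hormone and of the QRFP peptide. APELA (415 bp) and APLNR (249 bp), a ligand and its receptor, were both members. Of the 19 genes of peptides and peptide receptors, 6 had no H82 region within 10 kb: PDYN, NMS, VIPR1, SSTR3, OSTN (279 bp), a muscle and bone peptide, and OPRPN (443 bp), an opiorphin precursor. Of these, only VIPR1 had H82 regions at other starts.

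Synaptic and guidance genes were mostly open in both lines. Of 191 synaptic genes, 171 had a region in both lines and 4 in H146 only. These were SHANK1 (1593 bp), a scaffold of excitatory synapses, and the adhesion or organiser genes SLITRK6 (461 bp), CBLN2 (296 bp) and LRRTM4 (266 bp). SEMA3C (368 bp), a semaphorin, was the only member among 76 guidance genes. All 5 of these genes had an H82 region at another start. The lists of neuroendocrine genes (0 of 17) and of low-neuroendocrine, Hippo and NOTCH genes (0 of 14) that the study names had no member. Both lists were taken from the text of the study and are not independent of it. Signalling genes gave 5 of 227, and besides LEFTY1, NOTCH3, GDF10 and SFRP2 these included ANGPT4 (375 bp).

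Epithelial genes had the highest share among the kinds of list with over 100 genes. Of 508 epithelial genes, 35 (6.89%) were H146-only promoters, 27 were H82 only and 264 had a region in neither line. Keratin and keratin-associated genes gave 16 of 151 (10.6%), of which 89 had a region in neither line. They were 6 keratin genes, KRT20 (468 bp), KRT4 (438 bp), KRT222 (388 bp), KRT7 (297 bp), KRT5 (276 bp) and KRT86 (200 bp), and 10 hair keratin-associated genes from KRTAP5-1 (966 bp), KRTAP5-2 (583 bp) and KRTAP12-2 (472 bp) down to KRTAP5-9 (200 bp). KRT5 marks basal cells, KRT7 simple epithelium and KRT20 gut epithelium. The hair keratin-associated genes lie in clusters of similar copies, where reads could be split between them.

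Barrier and secretory genes gave 12 of 188 (6.38%). BPIFB4 (1155 bp), MUC13 (1104 bp), MUC15 (958 bp) and SFTPA2 (709 bp) had the widest regions. SFTPA2 encodes a surfactant protein of the alveolus, and SCGB1A1 (566 bp) the secretoglobin of airway club cells. SCGB2A2 (550 bp) and SCGB2A1 (441 bp), mammaglobins A and B, had regions over the TSS, as did SCGB1A1. SCGB1A1 had an H82 region at 1 of its 2 starts, BPIFB4 at 2 of 4 and MUC13 at 1 of 5. The nearest H82 base was 1171 bp from the SCGB1A1 TSS. MUC15, SFTPA2, SCGB2A2 and SCGB2A1 had no H82 region at any start. The group of 24 epithelial barrier and mucosal genes had a median region of 571.5 bp, the second widest of the named groups, and 1 of them (GJB6, a connexin gene) had no H82 region within 10 kb. Serine protease and inhibitor genes gave 7 of 169, among them KLK4 (2660 bp), SERPINB7 (500 bp), TMPRSS6 (473 bp) and SERPINB2 (467 bp).

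The largest group assigned by hand was that of leukocyte receptors and signalling, which has no share over all genes beside it. It was loosely drawn, and not all of its genes, such as MBL2 and SELE, are particular to leukocytes. On the immune lists, 25 of 735 (3.40%) were H146-only promoters, 49 were H82 only and 318 had a region in neither line. Cytokine and chemokine genes gave 12 of 229, with CCL21 (680 bp), IL37 (591 bp), CXCL8 (532 bp) and IL1F10 (381 bp) the widest. CXCL8 encodes the neutrophil chemokine interleukin 8, its region covered the TSS, and the nearest H82 region was 10587 bp away. CCL19 (335 bp) and CCL21, the ligands of CCR7, were next to each other and had separate regions. Leukocyte surface and lectin genes gave 12 of 362, with NLRP6, CD36 (1007 bp), MBL2 (679 bp) and SELE (467 bp) the widest. By hand, 34 genes of leukocyte receptors and signalling were found, among them VAV1 (474 bp), RAC2 (1800 bp), ZAP70 (680 bp) and DOCK2 (290 bp). Of these 34, 8 had a region that met an H82 region. The leukocyte markers PTPRC and CD3E had no region in either line.

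Sensory receptor genes are rarely open outside their own neurons. Of 445 olfactory and taste receptor genes, 397 had a region in neither line, 13 (2.92%) in H146 only, 10 in H82 only and 25 in both. OR2T34 (533 bp), OR2T2 (429 bp and 200 bp), OR2A42 (414 bp) and OR51A2 (408 bp) had the widest regions. Of the 14 sensory receptor genes grouped by hand, which add TAAR8 (212 bp), only OR14A16 (200 bp) had a region over the TSS, and 5 had no H82 region within 10 kb. Other G-protein-coupled receptor genes gave 13 of 211 (6.16%), with VIPR1, ADGRF5 (1168 bp), ADGRG7 (977 bp) and ADGRB1 (666 bp) the widest.

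Transporter genes gave 13 of 451, with ATP2B2 (794 bp), SLC7A4 (625 bp), SLC6A2 (515 bp), the noradrenaline transporter, and SLC5A9 (424 bp) the widest. Adhesion genes gave 8 of 238, led by TSPAN8, ITGAX (1392 bp), GJB6 (759 bp) and CDH26 (597 and 372 bp). Matrix genes gave 5 of 205, with ADAMTS16 (954 bp), COL6A3 (578 bp), COL6A6 (388 bp) and LUM (304 bp) the widest. Plasma protein genes gave 4 of 75, APOC3 (882 bp), HP (422 bp), GC (383 bp) and FGG (245 bp), which are products of the liver. Steroid and drug-handling enzyme genes gave 6 of 201, led by CYP11B1 (570 bp), HSD3B1 (524 bp), CYP2A13 (358 bp) and SULT1C3 (323 bp). Lipid enzyme genes gave 3 of 169, ALOX15 (1088 bp), FABP12 (728 bp) and ALOX12B (708 bp).

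Germ line genes gave 7 of 271, with BOLL (785 bp), TNP1 (323 bp), TEX33 (311 bp) and PRM3 (262 bp) the widest. Their wider group of 19 had the narrowest median, 253 bp. A list of cilium genes, drawn by symbol and taking in the whole CCDC and LRRC series, gave 7 of 539. Its widest members, CCDC149 (971 bp), CCDC144A (439 bp), LRRC74A (382 bp) and LRRC31 (277 bp), entered by those symbols alone and are not known here as cilium genes. Of the 7, only CFAP141 (250 bp) and CFAP46 (200 bp) are named for cilia and flagella. Genes with uncharacterised names gave 33 of 1387, led by ENSG00000257390, ENSG00000285471 (2504 bp), TMEM265 (2409 bp) and C16orf90 (672 bp). Families of near-identical copies gave 8 of 327, with TBC1D3H, NPIPA8 (1131 and 874 bp), POTEC (469 bp) and ANKRD20A1 (425 bp) the widest, and their regions are uncertain because reads could be placed on either copy.

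A few members were neighbours. There were 17 runs of adjacent coding genes that were all H146 only, holding 35 members, and in 5 of them the genes shared a region. The shared regions lay at FER1L5 and KANSL3 (50 bp between starts), at ENSG00000264058 and KRT222 (40 bp), at ENSG00000279686 and ECSCR (36 bp), at ENSG00000291240 and SLC7A4 (268 bp), and at CCDC144A and ENSG00000266302 (724 bp). The 12 runs without a shared region were OR2T34 with OR2T10, KRTAP5-1 with KRTAP5-2, KRTAP5-9 with KRTAP5-10, KRT7 with KRT86, SERPINB7 with SERPINB2, CCL19 with CCL21, IL27 with NUPR1, PABPN1L with CBFA2T3, TBC1D3H with TBC1D3F, GML with CYP11B1, C21orf140 with SMIM34, and the trio of SSTR3, RAC2 and CYTH4. The trio spanned 69550 bp of chromosome 22, and SSTR3 and CYTH4 had no H82 region within 10 kb.

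The members were spread over every chromosome from 1 to 22. Of promoters with an H146 region, 2.40% were H146 only across the genome. The share was highest on chromosome 22, with 18 of 357 (5.04%), and on chromosome 16, with 33 of 711 (4.64%). It was lowest on chromosome 15, with 3 of 472 (0.636%), and on chromosome 6, with 8 of 824 (0.971%). On chromosome 15, 67 promoters were H82 only, against 18 on chromosome 16 and 20 on chromosome 22. The DNA copies of each chromosome in the lines were not measured here, and their part in these shares was not tested.

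**Figure D5:**
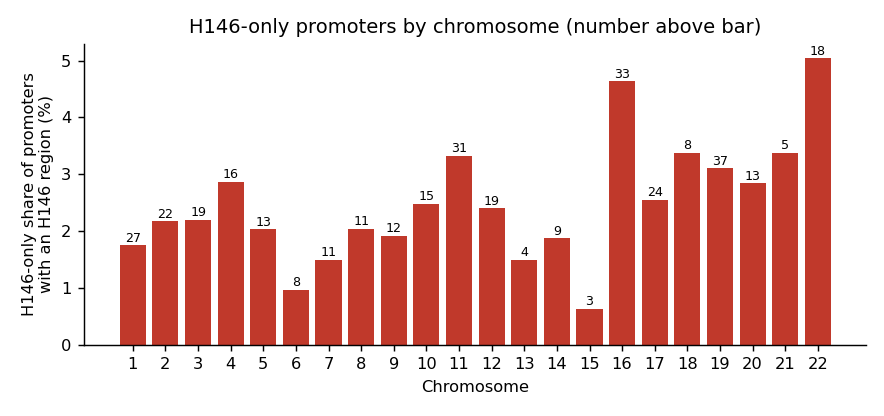
Share of promoters with an H146 region that were H146 only (y, in percent) by chromosome (x), with the number of H146-only promoters above each bar. Chromosomes 22 (5.04%) and 16 (4.64%) stand highest, and chromosomes 15 (0.636%) and 6 (0.971%) lowest.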

How the data were processed

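ATAC-seq was carried out on 13 samples. The authors trimmed reads with Trim Galore (0.4.4), aligned them to hg38 with Bowtie2 (2.3.4), removed duplicates with Picard, called peaks per sample with MACS2, removed blacklisted regions and merged peaks of a line within 500 bp. The deposited values are region starts and ends in bp, pooled over untreated and treated samples of a line. They hold no count or score, and 0 columns with values of a sample stayed unused. Pooling hides which sample showed a region, and merging joins neighbouring sites. The authors also used featureCounts (1.6.0) and DESeq2 for their own test of FHD-286, which was not repeated. Bowtie2 at default settings places a read with several equal matches at one of them, so regions in near-identical copies are uncertain. Whether cut ends were shifted for Tn5 is not given in the sources used here.

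Overlaps, distances, base composition and words were computed in Python (3.11.15) with pysam (0.24.0) on hg38 and GENCODE 44, 1-based. The overlap code was tested on simulated data, and bedtools (2.31.1) gave 0 members that differed. CpG-island-like promoters and motif words were defined as in the text. The members and lists were chosen with earlier results of these data known. Patterns of 3 family lists were corrected after the members were known, and the groups by function and some named genes within them were chosen after the values were seen. Otherwise the genes named were the 12 with the widest regions, the 8 with most H146 regions and the 8 farthest from H82. Also named were those at either limit and all members on the transcription factor and neuroendocrine lists. The rest were the 4 widest of each other list with 3 or more members, and neighbours. A few items that this rule names are not reported here. As there is 1 atlas per line, no test was made. Intervals are exact binomial (95%) and treat members as independent, although some share a region. In all, 45 alternatives were planned and 2 added after the data were seen, which left out members whose region met an H82 region.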

Additional observations from a re-analysis of the deposited data

How the results depend on the processing

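Of 47 values under other settings, 25 stayed within 1.5 times the count or within the 95% interval of the value given, and 22 did not. Some settings made the rule stricter or changed the distance or stretch measured, so their values had to differ. The tally is therefore not a measure of robustness. The number of H146-only promoters, 358, fell to 68 when no H82 region was allowed within 10 kb. It fell to 220 when none was allowed at any transcript start, and to 128 when the region had to cover the TSS. With H146 regions of at least 300 or 500 bp required, and H82 regions of any width kept, it fell to 225 and 105. When at least 500 bp was required in both atlases, the number was 339. With windows of 500 bp and 2 kb it was 363 and 378, of which 259 and 244 were among the 358. The median width, 362.5 bp, was 398 bp with the 500 bp window. The share with a region over the TSS, 35.8%, was 45.5% with the 500 bp window and 25.1% with the 2 kb window. The share with no H82 region within 10 kb, 19.0%, was 14.3% and 27.5% with those windows, 25.5% without H82 at any start, 10.5% for H146 regions of at least 500 bp, 37.7% within 5 kb and 8.38% within 20 kb. The island-like share, 10.6%, was 21.0% for H146 regions of at least 500 bp and 5.59% with a CpG limit of 0.75. CAGCTG was held by 20.9% of members in the central 200 bp of the region and by 53.1% within 500 bp of the TSS. These shares were 15.1% and 57.8% for CAGATG, and 5.31% and 13.7% for TGTTTAC. Leaving out members whose region met an H82 region, chosen after seeing the data, left 320 promoters with a median width of 329 bp. Lists with 3 or more members numbered 23, and 24 with the 2 kb window. No paired analysis was possible because the result comes from no test. Depth per library is unknown, so a promoter without a region is one where none was listed, which does not show that it was closed.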
